A study of Mus musculus with 6 samples.

Results

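The genes described here encode proteins that the liver secretes into the blood and that act on other tissues (hepatokines), including the angiopoietin-like inhibitors of lipoprotein lipase. They were Fgf21, Angptl4, Angptl8, Inhbe, Inhba, Fetub, Ahsg and Lect2, taken as the rows of the count table with these gene names. These 8 genes stand among 54532 in the table, and all 8 were among the 13377 genes with enough counts to be tested. Liver RNA was sequenced from 6 male C57BL/6J mice, a standard inbred strain with no transgene. All 6, controls included, had been made insulin resistant (IR) by a high-fat diet that began at 8 weeks of age and lasted 6 weeks, and all had been fasted for 16 h. The 3 mice called IR insulin received 0.75 units of insulin per kg body weight by intraperitoneal injection, and the 3 called IR vehicle received bovine serum albumin (BSA), its carrier. Livers were taken 6 h later, so the comparison asks how insulin altered hepatokine transcripts within this diet and fasting state.

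Fibroblast growth factor 21 is induced in liver by fasting, carbohydrate and cellular stress, and signals through FGF receptors joined to the coreceptor beta-klotho. Angiopoietin-like proteins restrain lipoprotein lipase, the enzyme that releases fatty acids from circulating triglyceride: ANGPTL4 is known as a fasting-induced PPAR alpha target, and ANGPTL8 as a protein induced by feeding and insulin. Inhbe and Inhba encode activin beta subunits, the fetuins are abundant plasma glycoproteins that can inhibit the insulin receptor, and LECT2 is a chemotactic factor made by hepatocytes.

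The DNA upstream of these genes was searched for short factor motifs, which were chosen with earlier results of these data known. A link between the matches and the fold changes was not tested. RefSeq promoter windows (GRCm38.p6, 250 bases before the start of transcription) were found for 7 of the 8 genes, Angptl4 being the one without an entry. The letters TGATGCAA, the core of the C/EBP-ATF response element, were searched on both strands and occurred in the windows of Fgf21, Angptl8 and Inhbe, against 0.792% of 32817 windows in the table. They lay 139, 130 and 181 bases before the start. The plus strand is shown with the match in capitals, for Fgf21 at chr7:45615614-45615637, for Angptl8 at chr9:21835372-21835395 and for Inhbe at chr10:127352014-127352037.
Fgf21: tggacggaTGATGCAAtggggggg
Angptl8: catcagtcTGATGCAAtggctgag
Inhbe: gacatgcaTGATGCAAgaaagagg
The flanks differ as a whole, though single letters agree. The longest run shared at the same place is tgg, which follows the match in both Fgf21 and Angptl8. In GENCODE M21 the Inhbe match lies inside the first exon of a longer transcript.

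The whole window of Fgf21, the 1 gene of the 8 that met the study's criteria below, is printed in the direction of the gene (chr7:45615491-45615740, minus strand), so the first motif reads TTGCATCA, the opposite strand of TGATGCAA.
Fgf21 promoter: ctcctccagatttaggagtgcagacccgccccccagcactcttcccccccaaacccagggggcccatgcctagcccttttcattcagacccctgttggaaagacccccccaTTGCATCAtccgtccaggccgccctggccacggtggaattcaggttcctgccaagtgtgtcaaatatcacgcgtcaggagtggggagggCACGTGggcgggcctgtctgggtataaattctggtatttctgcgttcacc
The second run of capitals is CACGTG, the E-box core read by USF and ChREBP-type factors, 50 bases before the start. It occurred in 6.02% of all windows and in none of the other members' windows. None of the members' windows held the nuclear receptor half-site AGGTCA (14% of all windows), its direct repeat with 1 base between (0.0335%), the cAMP response element TGACGTCA (1.55%) or TTGCGCAA (0.165%). These are letter matches in short windows and were not tested as sites of binding.

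Library totals ran from 18449986 to 21827619 counts, and the count table was read at the level of genes. Levels are TMM-normalized counts (CPM), as mean ± SD over 3 libraries where both are given. Positive log2 fold changes mean higher in IR insulin. Of 8 hepatocyte markers, 7 were found in the table and were abundant in every library, with a summed level of 65933 to 170887 CPM. Vehicle replicate 2 stood apart: its levels fell with the GC content of transcripts at −1.13 on the log2 scale per 10 percentage points, against −0.064 to 0.19 in the other 5 libraries. Vehicle replicate 3 was the next most distant, with r of log2 CPM across genes of 0.948 to 0.954 with the 4 remaining libraries, which had 0.980 to 0.988 among themselves. No gene reached an adjusted p under 0.05 (0 of 13377, 0%, smallest adjusted p 0.852, edgeR), with 0 by DESeq2 and voom as well, and 383 genes had an unadjusted p under 0.05 in edgeR.

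By the study's criteria (a log2 fold change of 0.35 or more in either direction, with an unadjusted p under 0.05), 1 of the 8 hepatokine genes was called, Fgf21, higher with insulin. Over all genes tested 2.86% were called, 1% higher and 1.86% lower. The balance of 134 higher and 249 lower calls was not stable: it was 203 and 118 with the replicate block and 108 and 105 by voom. Fgf21 was also the 1 member whose groups did not overlap, against 12.3% of all genes (6.25% higher and 6.04% lower with insulin), and no member passed an adjusted p of 0.05. Fitted log2 fold changes were above 0 for 6 members and below 0 for 2, with a median of 0.12 beside −0.017 over all genes tested, of which 48.6% lay above 0. With 8 genes a single one is 12.5%, so the call and the separation both rest on Fgf21 alone. In whole liver fewer cells of a type and less RNA per cell cannot be told apart, which holds for every value below.

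**Figure D1:**
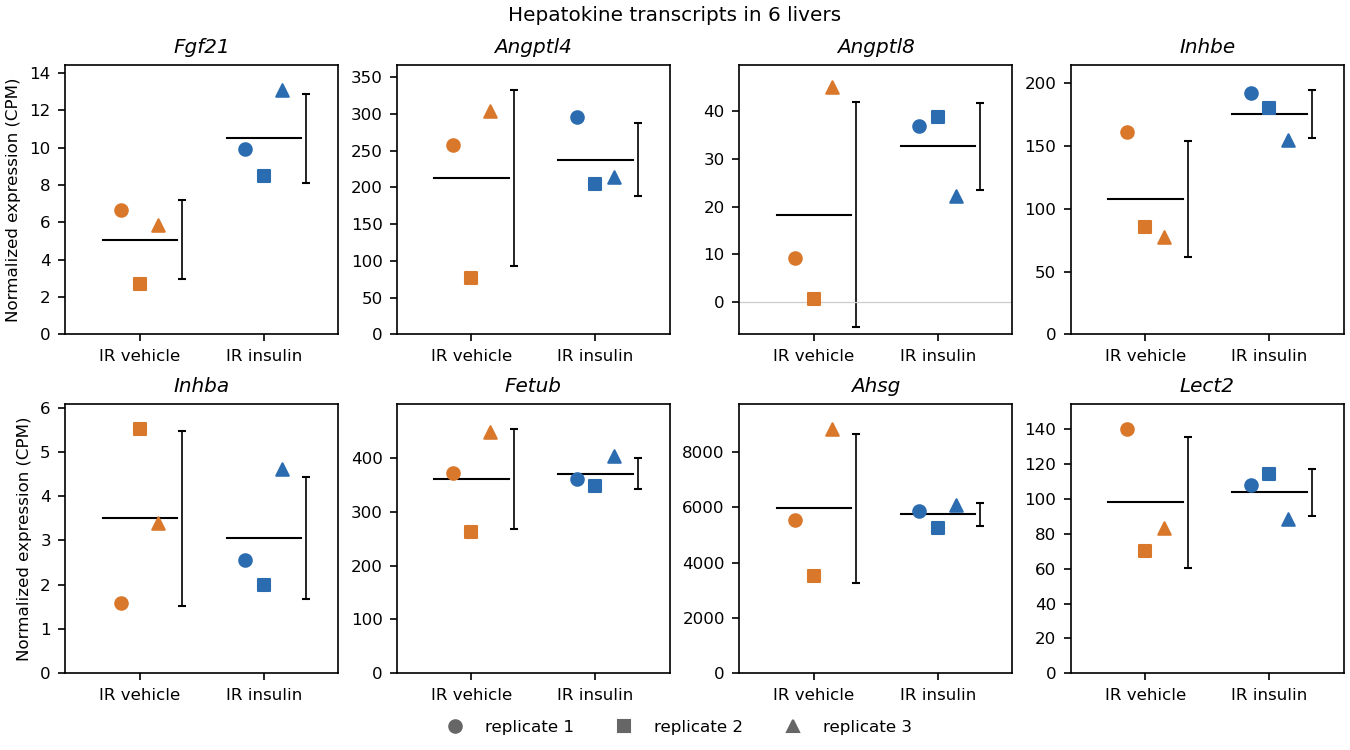
Normalized expression (CPM) of the 8 hepatokine genes in each library, IR vehicle in orange and IR insulin in blue, with marker shape giving the replicate number. Horizontal lines are group means and the bars beside them ± 1 SD (n = 3); the 3 insulin points lie above the 3 vehicle points in the Fgf21 panel, and in the other panels the groups overlap.

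Fgf21 (ENSMUSG00000030827, chr7:45613886-45615490, minus strand, GRCm38, 3 exons, no overlapping gene) encodes the fasting and stress hormone that acts on fat and brain. Vehicle replicates 1, 2 and 3 gave 6.66, 2.70 and 5.87 CPM, and insulin replicates 1, 2 and 3 gave 9.91, 8.49 and 13.1 CPM. All insulin libraries were above all vehicle libraries, vehicle replicate 2 was the lowest and insulin replicate 3 the highest. The group levels were 5.08 ± 2.10 and 10.5 ± 2.36 CPM, and the log2 fold change was 1.04 ± 0.38 (SE; 95% interval 0.17 to 1.92), a 2.06-fold difference. The unadjusted p was 0.0247 and the adjusted p 0.852 (edgeR), which placed the gene at rank 105 of 13377 by p. The call was lost in 2 alternatives: without insulin replicate 3 the value was 0.86 (unadjusted p 0.0953, edgeR), and by voom with sample quality weights it was 0.66 (unadjusted p 0.0548, limma).

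The level of Fgf21 rested on 44 to 284 counts a library. The 44 counts in vehicle replicate 2 give an exact 95% Poisson interval of 1.96 to 3.63 CPM, which covers counting error only and ends below the other 5 values. The deviation of that library, its log2 CPM minus the median over the remaining 5, was −1.62. Its transcript has 54.5% GC, and among tested genes in the same of 20 GC bins the median deviation was −0.71. After a GC offset the levels were 6.48, 4.32 and 5.46 CPM with vehicle against 8.89, 8.06 and 11.7 CPM with insulin. The groups still did not overlap, and the log2 fold change was 0.82 ± 0.25 (SE; unadjusted p 0.0114, edgeR).

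The 5 tested genes for FGF21 receptors and coreceptors held 1 call of the 6 listed, Klb, lower with insulin. Klb encodes beta-klotho, without which FGF21 does not signal. It was at 9.09, 17.4 and 37.9 CPM in the vehicle libraries and at 7.34, 9.31 and 10.9 CPM in the insulin libraries. The groups overlapped, and vehicle replicate 3 stood highest. The log2 fold change was −1.22 ± 0.49 (SE; unadjusted p 0.0361, adjusted p 0.852, edgeR), and it was −0.52 without vehicle replicate 3 (unadjusted p 0.172). The unadjusted p of Klb was also above 0.05 when any 1 insulin library was left out (0.106, 0.0800 and 0.0606 without replicates 1, 2 and 3) and by voom with sample quality weights (−0.61, unadjusted p 0.155). The receptor genes Fgfr1, Fgfr2, Fgfr3 and Fgfr4 had log2 fold changes of 0.32, −0.37, 0.43 and 0.078, and the median of the list was 0.078. Of these, Fgfr1, Fgfr2 and Fgfr4 changed sign in at least 1 alternative. Kl, for the coreceptor alpha-klotho, was at 0 to 0.0866 CPM and was not tested.

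The angiopoietin-like genes did not meet the criteria. Angptl4 (ENSMUSG00000002289, chr17:33773750-33781830, minus strand, 7 exons) was at 257, 77.2 and 304 CPM in the vehicle libraries and at 295, 204 and 214 CPM in the insulin libraries. Vehicle replicate 2 was far below the other 5, which overlapped. The group levels were 213 ± 120 and 238 ± 49.8 CPM, with a log2 fold change of 0.16 ± 0.47 (SE; 95% interval −0.92 to 1.24, unadjusted p 0.742, edgeR). Its sign was not stable: the value was −0.24 without vehicle replicate 2, −0.020 without insulin replicate 1 and −0.040 by voom with sample quality weights. The deviation of vehicle replicate 2 was −1.74 on the log2 scale, beside a median of −0.061 in its GC bin (50.7% GC).

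Angptl8 (ENSMUSG00000047822, chr9:21835510-21837347, plus strand, 4 exons) varied most. Its vehicle values were 9.25, 0.737 and 45.0 CPM, from 175, 12 and 944 counts, a 61.1-fold range. With insulin the values were 36.7, 38.7 and 22.2 CPM, a 1.74-fold range. The highest of the 6 libraries, vehicle replicate 3, and the lowest, vehicle replicate 2, were thus both vehicle libraries, and the insulin libraries lay between. The log2 fold change was 0.82 ± 1.02 (SE; 95% interval −1.53 to 3.18, unadjusted p 0.442, edgeR), so neither a decrease nor a large increase lay outside the interval.

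The estimate for Angptl8 depended on vehicle replicate 3: without it the log2 fold change was 2.69 (unadjusted p 0.0182, edgeR). By voom with sample quality weights it was 1.56 (unadjusted p 0.0229, limma). The 12 counts in vehicle replicate 2 give an exact 95% Poisson interval of 0.381 to 1.29 CPM, below every other library. The transcript has 60.6% GC, higher than 97.1% of tested genes. Its deviation in that library was −5.46 on the log2 scale beside a median of −1.76 in its GC bin, of whose genes 0.149% were lower still, and after the GC offset the library was still lowest, at 2.15 CPM.

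Angptl8 lies within the span of Dock6 on the opposite strand, and the counting is not stated to use strand. Any reads from stretches that both genes share could therefore not be told apart. Whether their exons overlap was not examined. Dock6 was at 3.91, 1.96 and 8.92 CPM in the vehicle libraries and at 3.33, 3.85 and 6.32 CPM in the insulin libraries. It was likewise lowest in vehicle replicate 2 and highest in vehicle replicate 3. Angptl8 is also expressed in adipose tissue, and the summed level of 5 adipocyte markers was 63.6, 26.6 and 0.191 CPM in vehicle replicates 1, 2 and 3. It was 154 and 96.7 CPM in insulin replicates 1 and 2, and in insulin replicate 3 it lay just under vehicle replicate 2. Cfd made up most of the sum in every library, and Adipoq, Lep, Plin1 and Retn were each at 0 to 0.0866 CPM. This sum, mostly Cfd, was lowest in vehicle replicate 3, the library with the most Angptl8. Whether adipose tissue had a part in the Angptl8 values was not tested.

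The other angiopoietin-like genes and angiopoietins gave 0 calls in either direction among 4 tested of 8 listed, with a median log2 fold change of −0.079. Of 8 tested genes for lipoprotein lipase and its partners, none was called (2 above and 6 below 0, median −0.24). In this list Apoc3, a further inhibitor of the lipase, had groups without overlap, at 1478 to 2080 CPM with vehicle against 1396 to 1420 CPM with insulin (log2 fold change −0.39, unadjusted p 0.169, edgeR). With the GC offset it was −0.86 (unadjusted p 0.0455), which met the criteria, the 1 of 15 alternatives with an unadjusted p under 0.05. Without vehicle replicate 2 it was −0.29 (unadjusted p 0.232, edgeR), and without vehicle replicate 3 −0.33 (unadjusted p 0.22, edgeR).

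Inhbe (ENSMUSG00000047492, chr10:127348857-127354411, minus strand, 2 exons) encodes activin subunit beta E, made mainly by hepatocytes. It was at 161, 85.8 and 77.3 CPM in the vehicle libraries and at 192, 180 and 155 CPM in the insulin libraries. The groups overlapped by 1 library: vehicle replicate 1 was above insulin replicate 3. The levels were 108 ± 46.1 and 176 ± 19.1 CPM and the log2 fold change was 0.70 ± 0.32 (SE; 95% interval −0.032 to 1.44), with unadjusted p 0.0585 and adjusted p 0.852 (edgeR). It was above 0 in all 15 alternatives, from 0.46 to 1.11, and its unadjusted p was under 0.05 in 4. The largest was the fit without vehicle replicate 1 (1.11, unadjusted p 0.00317). Under the GC offset the value was 0.57 (unadjusted p 0.0726).

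Inhba (ENSMUSG00000041324, chr13:16011851-16031621, plus strand, 5 exons), for the beta A subunit of activin A, was low in all libraries. It was at 1.59, 5.53 and 3.39 CPM with vehicle, from 30, 90 and 71 counts, and at 2.57, 1.99 and 4.61 CPM with insulin, from 57, 46 and 100 counts. The insulin values all lay within the vehicle range, and vehicle replicate 2 was here the highest library. The log2 fold change was −0.19 ± 0.52 (SE; 95% interval −1.39 to 1.01, unadjusted p 0.722, edgeR) and was above 0 in 6 of 15 alternatives. The transcript has 41.4% GC, and its deviation in vehicle replicate 2 was 1.08 on the log2 scale, beside a median of 0.74 in its GC bin.

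Both activin genes overlap annotated genes on the opposite strand, which were at 0 to 5 counts (Gm47200 at Inhbe, Gm48444 and B230303A05Rik at Inhba). Among the 15 other activin and inhibin subunits, binding proteins, receptors and Smads, 12 were tested and none was called, with a median log2 fold change of −0.12 (4 above and 8 below 0). Inhbc, the neighbouring hepatic subunit gene, was at 38.02, 56.0 and 45.6 CPM with vehicle against 36.2, 39.3 and 50.1 CPM with insulin, and its groups overlapped. The type I receptor gene Acvr1b had a log2 fold change of 0.47 and the antagonist gene Fst of −1.41, the latter with 4.53 CPM in vehicle replicate 3 and under 1 CPM in the other 5 libraries. For Fst the value without vehicle replicate 3 was 0.0026 (unadjusted p 0.997, edgeR), and neither gene met the criteria.

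The fetuin genes lie side by side on chromosome 16 (Ahsg at chr16:22891277-22899449 with 7 exons and Fetub at chr16:22918334-22939778 with 9, both on the plus strand, followed by Hrg, Kng2 and Kng1). Ahsg (ENSMUSG00000022868), for fetuin-A, was the most abundant member. It was at 5559, 3507 and 8853 CPM with vehicle and at 5873, 5263 and 6100 CPM with insulin. The vehicle libraries held both the lowest and the highest value, a 2.52-fold range against 1.16-fold with insulin. Its log2 fold change was −0.056 ± 0.37 (SE; 95% interval −0.92 to 0.81, unadjusted p 0.885, edgeR). An antisense gene, Gm30505, overlaps it and was not analysed here.

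Fetub (ENSMUSG00000022871), for fetuin-B, was at 372, 262 and 448 CPM with vehicle and at 360, 348 and 404 CPM with insulin. Its order of libraries had the same lowest and highest library as Ahsg. The log2 fold change was 0.040 ± 0.26 (SE; 95% interval −0.57 to 0.65, unadjusted p 0.883, edgeR). The sign of Fetub changed in 6 of 15 alternatives and that of Ahsg in 3. Per kilobase of longest transcript, Ahsg was 14.4 to 21.3 times Fetub in every library. The cystatin-type genes in a list of 5 (Hrg, Kng1, Kng2, Cst3 and Cstb) held no call, and their median log2 fold change was −0.16. Kng1, for a kininogen, was at 1523, 2151 and 2198 CPM with vehicle against 1510, 1517 and 1357 CPM with insulin, without overlap (log2 fold change −0.42, unadjusted p 0.149, edgeR).

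Lect2 (ENSMUSG00000021539, chr13:56542464-56548502, minus strand, 4 exons) was at 140, 70.0 and 83.6 CPM with vehicle and at 108, 115 and 88.6 CPM with insulin. All insulin values lay inside the vehicle range. The log2 fold change was 0.083 ± 0.30 (SE; 95% interval −0.61 to 0.78, unadjusted p 0.789, edgeR), and it was below 0 without vehicle replicate 2 (−0.11) and without vehicle replicate 3 (−0.020). Of the LECT2 receptor genes, 3 of 4 were tested, none was called, and Met, Tek and Tie1 had log2 fold changes of −0.89, −0.60 and −0.26. Without vehicle replicate 2 Met was −0.25, and without vehicle replicate 3 Tek was −0.25 and Tie1 0.28. Met was at 66.3, 189 and 75.2 CPM with vehicle against 56.8, 53.8 and 67.5 CPM with insulin, and Tek at 7.30, 8.90 and 14.7 CPM against 6.84, 7.23 and 6.37 CPM. Met stood highest in vehicle replicate 2. Tek, an endothelial receptor, had groups without overlap. The sum of 6 sinusoidal endothelial markers was 154, 119 and 250 CPM against 167, 160 and 153 CPM. Both were highest in vehicle replicate 3, but in vehicle replicate 2 the sum was lowest and Tek was above every insulin value. A part of endothelial content in the Tek values was not tested.

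**Figure D2:**
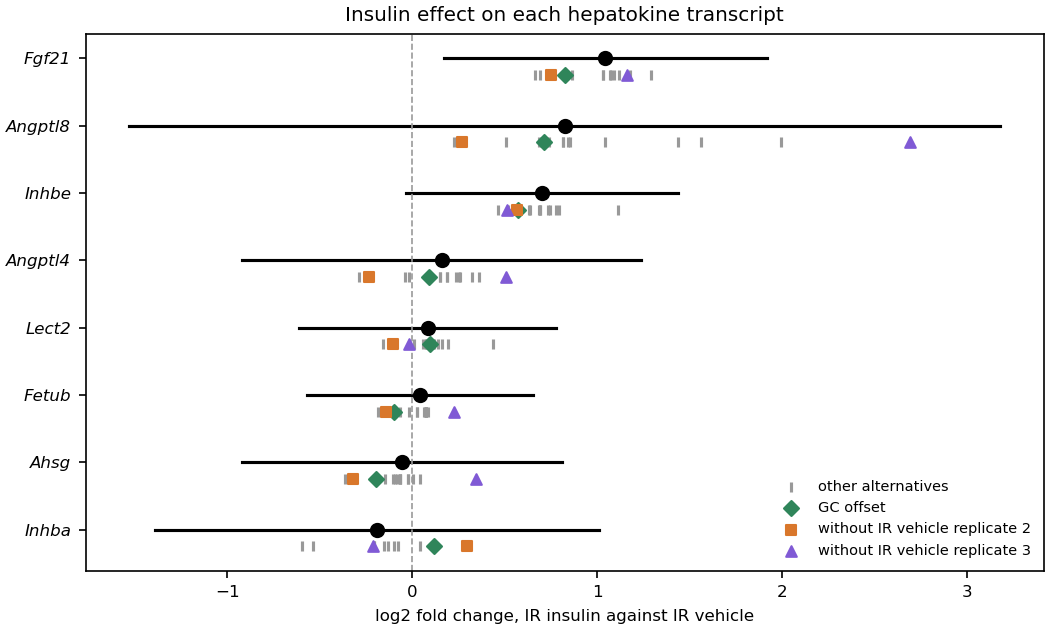
Log2 fold change of IR insulin against IR vehicle for each gene (black point, with its 95% interval as a line) and the same value under the alternatives tried, drawn below it. Fgf21, Angptl8 and Inhbe stay to the right of 0 in all 15 alternatives, and the other 5 genes have points on both sides of 0.

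The alternatives split the members by direction. Fgf21, Angptl8 and Inhbe kept a positive log2 fold change in all 15, from 0.66 to 1.29 for Fgf21, 0.23 to 2.69 for Angptl8 and 0.46 to 1.11 for Inhbe. An unadjusted p under 0.05 was found in 13, 2 and 4 of the 15. Angptl4, Inhba, Fetub, Ahsg and Lect2 changed sign in 3 to 6 alternatives each and had no p under 0.05 in any. The adjusted p of the 8 genes ran from 0.473 to 0.9997 over the alternatives.

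**Figure D3:**
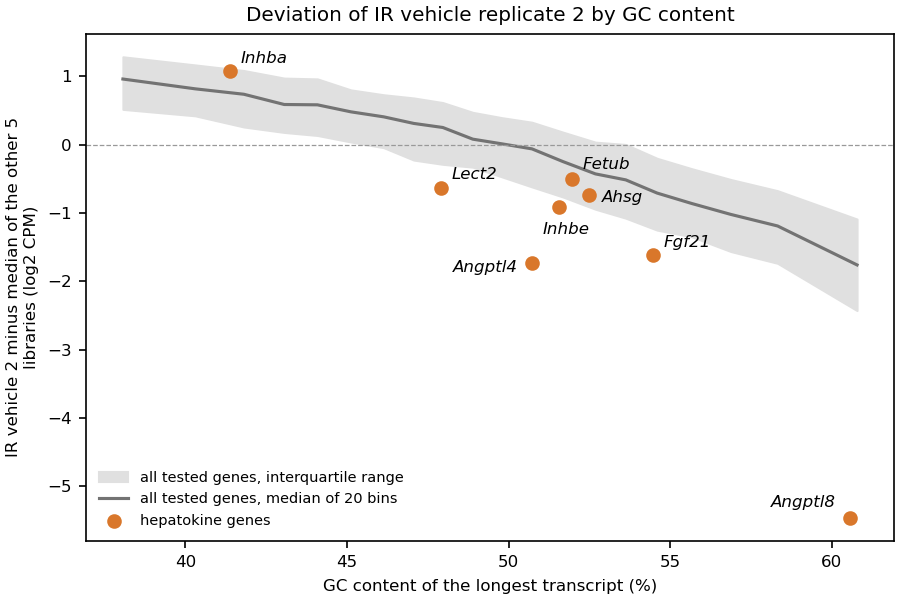
Log2 CPM in vehicle replicate 2 minus the median over the remaining 5 libraries (vertical axis) against GC content of the longest transcript (%, horizontal axis) for the 8 genes, with the median and interquartile range of all tested genes in 20 bins. Inhba is above 0, the other 7 genes are below 0, and Angptl8 lies far below the trend at −5.46.

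Vehicle replicate 2 was the lowest of the 6 libraries for 6 of the 8 members and the highest for 1. Over all tested genes it was the lowest for 37.4% and the highest for 35.8%. Deviations on the log2 scale were −1.62 for Fgf21, −1.74 for Angptl4, −5.46 for Angptl8, −0.91 for Inhbe, −0.51 for Fetub, −0.74 for Ahsg and −0.63 for Lect2. For these 7 genes the deviation was lower than the median of genes of like GC content, which was between −1.76 and 0.25. Without this library the log2 fold changes of Fgf21, Inhbe and Angptl8 were 0.75, 0.56 and 0.27, all above 0. The erythroid marker sum was 1587 CPM in vehicle replicate 2 and 312 to 626 CPM elsewhere, and the B cell sum 40.3 CPM against 2.86 to 10.04 CPM. Their part in the hepatokine values was not tested.

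**Figure D4:**
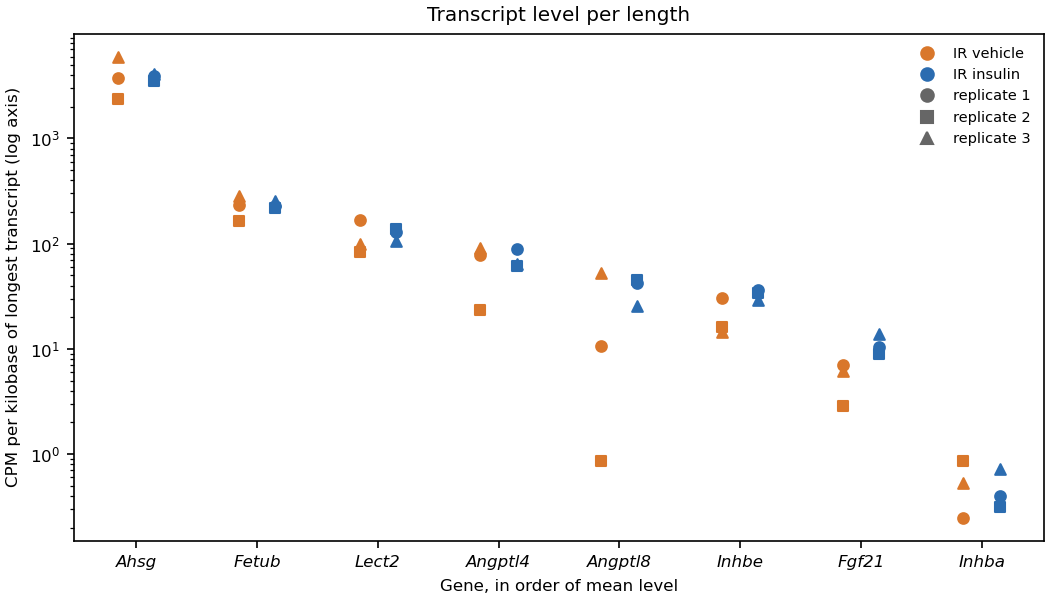
CPM per kilobase of the longest annotated transcript for each gene in each library, on a log axis, genes ordered by their mean over 6 libraries. Ahsg is highest and Inhba lowest in the order of means, and Angptl8 spans the widest range, from 0.852 to 52.0.

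Compared per kilobase of longest transcript, the order of mean levels over the 6 libraries was Ahsg (3948), Fetub (229), Lect2 (121), Angptl4 (68.1), Angptl8 (29.4), Inhbe (26.7), Fgf21 (8.19) and Inhba (0.513 CPM per kilobase). Ahsg stood at rank 19 of the tested genes on this scale and Inhba at rank 11674. The ranges over the 6 libraries did not overlap between Ahsg and Fetub, between Inhbe and Fgf21, or between Fgf21 and Inhba. The pooled ranges of the neighbours from Fetub through to Inhbe overlapped. Within each of the 6 libraries the first 4 places were nevertheless Ahsg, Fetub, Lect2 and Angptl4 in that order, and the places of Angptl8 and Inhbe changed between libraries. The RefSeq start of Inhbe lies inside the longest transcript used here (5319 bases). Its level per kilobase, and so its place, depends on which form is expressed, which was not determined.

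Likeness across the libraries was described by Pearson's r of log2 CPM over the 6 libraries. Vehicle replicate 2, with its GC trend, enters every such value, so r is also given without it. Among the members, Ahsg and Fetub were alike (r = 0.97 over 6 libraries, 0.93 over 5), and Inhba and Lect2 ran opposite (−0.95 and −0.92). Fgf21 with Angptl8 had r = 0.80 over 6 libraries and 0.039 over 5, and Fgf21 with Inhbe 0.73 and 0.60. The positive relation of Fgf21 with Angptl4 (0.72) was −0.52 without vehicle replicate 2.

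The genes outside the group most like each member, among those with a mean of at least 10 CPM, were as follows. Chdh, for the mitochondrial choline dehydrogenase, was most like Fgf21 (r = 0.997, and 0.99 without vehicle replicate 2). It was at 100, 73.7 and 101 CPM with vehicle against 120, 113 and 134 CPM with insulin. The lack of overlap here is no separate observation, because Chdh was picked for its likeness to Fgf21 in the same libraries. Inhbe was most like Fabp1, for the liver fatty acid-binding protein (0.99 in both), which was at 2143, 1500 and 1397 CPM against 2731, 2466 and 2205 CPM. Angptl8 was most like Usf1, for an E-box factor (0.99, and 0.96 without vehicle replicate 2). Angptl4 was most like Tmem120a (0.998, and 0.98 without it), Fetub like Hectd3 (0.998 and 0.99), Ahsg like the ribosomal protein gene Rpl38 (0.997 and 0.99), Lect2 like Rars2 (0.98 and 0.97) and Inhba like Ptges2 (0.98 in both). The other like genes of these were Sh3bp5 and Scaf4 for Fgf21, Gas5 and Nectin2 for Angptl4, Kctd2 and Susd6 for Angptl8, Icam1 and Prob1 for Inhbe, Mllt10 and Tshz1 for Inhba, Eef1g and Lmf2 for Fetub, Naxd and Aprt for Ahsg, and Psme1 and Cs for Lect2. With 6 libraries and 13377 genes, such values describe these samples only.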

How the data were processed

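Libraries were prepared by the authors with the NEBNext Ultra kit and read on an Illumina HiSeq instrument, and alignment to mm10 (GRCm38) used Bowtie 2 (version 2.2.3). The counting program, annotation release and use of strand are not given in the sources used here. The deposited table holds raw read counts per gene, neither normalized nor pooled, for 6 libraries, and 0 other sample columns were left unused. Of 54532 identifiers, 54495 (99.9%) were found in GENCODE M21, which gave coordinates, overlaps, transcript length and GC content. Longest-transcript length stands in for the expressed isoform. Reads crossing exon junctions can be lost by an aligner without splicing, which affects genes with many exons most.

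Groups and replicate numbers came from the sample labels. The labels do not tie samples to named animals, but the paper describes 3 independent mice per group. On that basis p values measure the spread between these mice. Groups were compared with edgeR 4.0.16 (quasi-likelihood F test, TMM, filterByExpr with a minimum count of 10 and total of 15, R 4.3.3), with Benjamini-Hochberg adjustment over 13377 genes. The biological coefficient of variation was 0.357, and this spread, more than depth, set the precision. Counts carry no molecular identifiers, so Poisson intervals cover counting error only. On simulated counts for the 13377 genes of this comparison, unadjusted p under 0.05 with the right sign was reached by 69.5% of genes changed by 1 and 96.7% of those changed by 2 on the log2 scale, and by 4.5% of unchanged genes. The simulated counts held no GC trend such as that of vehicle replicate 2, so these rates need not hold for the real libraries. The study's criteria come from its methods, where DESeq2 was used.

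The alternatives were RLE and upper-quartile size factors, no filter on low counts, DESeq2 (1.42.0), voom with quality weights (limma 3.58.1), a replicate block, a loess offset for GC content (span 0.5), both together, each library left out, and, chosen after seeing the data, the GC offset without vehicle replicate 2. Members, gene lists and motifs were chosen with earlier results of these data known. The text names every member, list genes past the criteria or otherwise up to 4 with the smallest p of their list, and the 3 genes of highest r with each member. Any other gene (Inhbc, Kl, Fgfr4, Dock6, Cfd, Atf4, Igfbp1, Cpt1a) was named after its values were seen. Some genes of these lists are not reported here.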

Additional observations from a re-analysis of the deposited data

How the results depend on the processing

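Of the 8 members, 1 met the study's criteria; the count was 2 with no filter on low counts, with the replicate block and with the block plus GC offset (Fgf21 and Inhbe), and 0 to 2 with 1 library left out. It was 0 without insulin replicate 3, and 2 without vehicle replicate 1 (Inhbe added) or vehicle replicate 3 (Angptl8 added). By voom it was 1, but Angptl8 (1.56) in place of Fgf21 (0.66). Over all genes the count of 383 was 742 with no filter and 213 by voom, and 99 to 1349 with 1 library left out: leaving out vehicle replicate 1 gave 1349, vehicle replicate 3 gave 888, and insulin replicates 1, 2 and 3 gave 99, 143 and 120. The adjusted p was 0.05 or more for every gene in all fits.

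Signs reversed as follows, and the cause was not tested. By voom the log2 fold changes were −0.040 for Angptl4, 0.31 for Inhba, −0.065 for Fetub and −0.16 for Lect2. With the GC offset they were 0.12 for Inhba and −0.10 for Fetub, and with the block added 0.12 and −0.093. Without vehicle replicate 2 they were −0.24 for Angptl4, 0.29 for Inhba, −0.14 for Fetub and −0.11 for Lect2, and with the GC offset too −0.29, 0.29, −0.19 and −0.13. Without vehicle replicate 3, Ahsg was 0.34 and Lect2 −0.020. Without insulin replicate 1 Angptl4 was −0.020, without insulin replicate 2 Inhba was 0.042 and Ahsg 0.0048, and without insulin replicate 3 Fetub was −0.017. With 1 library left out, the ranges were −0.24 to 0.51 for Angptl4, −0.60 to 0.29 for Inhba, −0.14 to 0.23 for Fetub, −0.32 to 0.34 for Ahsg and −0.11 to 0.44 for Lect2.

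Same-numbered vehicle and insulin samples deviated together at correlations of −0.039 to 0.069, so pairing by replicate number was not evident. With 3 samples per group, of which vehicle replicates 2 and 3 stood apart, this check cannot exclude pairing. With the replicate block, Ahsg was 0.043, Inhbe 0.78 (unadjusted p 0.0352, edgeR) and 321 genes were called; 1 of 3 vehicle and 2 of 3 insulin samples correlated best with their own number.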

Other observations

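Further genes known to encode hepatokines, and genes that act on or beside them, were read in the same fit. Of 13 other hepatokine genes, all tested, none met the study's criteria, with 8 log2 fold changes above and 5 below 0. Fgl1, for a fibrinogen-like hepatokine, was at 851, 906 and 658 CPM with vehicle and at 1083, 1068 and 1112 CPM with insulin. Its groups did not overlap, and the log2 fold change was 0.43 (unadjusted p 0.114, edgeR). Its unadjusted p was under 0.05 in 5 of 15 alternatives, among them the GC offset (0.68, unadjusted p 0.0167) and the fit without vehicle replicate 2 (0.53, unadjusted p 0.0379). Dpp4, for a dipeptidyl peptidase shed by hepatocytes, was at 80.4, 152 and 106 CPM against 76.1, 80.1 and 68.2 CPM, also without overlap (−0.59, unadjusted p 0.0639, and −0.31 without vehicle replicate 2). Gpnmb was near the filter, at 0.123 to 0.423 CPM with vehicle against 0.461 to 0.991 CPM with insulin. Igfbp1, a hepatic transcript that insulin represses in textbook accounts, was at 36.5, 3.99 and 266 CPM with vehicle against 14.0, 11.6 and 60.2 CPM with insulin, and its groups overlapped. Its log2 fold change was −1.84, and 0.49 without vehicle replicate 3.

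Among 15 transcription factors known for hepatokine genes, none met the criteria. Hif1a was at 49.0, 88.5 and 47.2 CPM with vehicle against 37.0, 40.1 and 39.9 CPM with insulin, without overlap (log2 fold change −0.66, unadjusted p 0.0517, edgeR, and −0.30 without vehicle replicate 2). Atf4 was at 121, 27.0 and 96.6 CPM with vehicle and at 137, 122 and 135 CPM with insulin, without overlap (log2 fold change 0.69, unadjusted p 0.188, edgeR, and 0.28 without vehicle replicate 2), and Ddit3 at 22.5, 4.11 and 6.10 CPM against 32.3, 15.02 and 27.7 CPM (1.20, unadjusted p 0.0902). Of 9 tested ATF4 stress targets, 6 lay above and 3 below 0 and none met the criteria. Their median was 0.23, but −0.083 with the GC offset and −0.11 without vehicle replicate 2. Nupr1 was the one with separated groups (1.37, unadjusted p 0.0649, edgeR). It was low, at 2.43, 0.368 and 0.715 CPM with vehicle against 3.74, 2.86 and 2.54 CPM with insulin. Without vehicle replicate 2 its log2 fold change was 0.96 (unadjusted p 0.107, edgeR). The 12 fasting PPAR alpha targets, among which Cpt1a had a log2 fold change of −0.10, held no call and had a median of −0.10. Of 11 tested lipogenic genes, Fasn met the criteria, at 78.1, 39.6 and 70.2 CPM with vehicle against 102, 113 and 99.3 CPM with insulin (0.74, unadjusted p 0.0327). With the GC offset Fasn was 0.32 (unadjusted p 0.131, edgeR), and without insulin replicates 1, 2 and 3 its unadjusted p was 0.0720, 0.100 and 0.0662. It was above 0 in all 15 alternatives, with an unadjusted p under 0.05 in 10. Without vehicle replicate 2 it was 0.50 (unadjusted p 0.0134, edgeR), and with the GC offset too 0.42 (unadjusted p 0.0471, edgeR). Over the 11 lists, 97 of 109 genes were tested, of which 1 was called higher and 1 lower. Over all genes tested 2.86% were called, 1% higher and 1.86% lower. Groups without overlap were found for 12.3% of all genes tested, so such a separation in single genes of these lists is not unusual.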
